A study of Mus musculus with 4 samples.

Results

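Aminoacyl-tRNA synthetases are the enzymes that join each amino acid to its tRNA, the step that supplies charged tRNA to the ribosome. By symbol, 35 of their genes were picked out from the array's annotation (a 1-letter amino acid code followed by "ars", together with Eprs, Farsa and Farsb). They came out of 18193 genes with a probe set naming 1 gene. Symbols ending in 2 were taken as the mitochondrial enzymes, which gave 19 cytosolic and 16 mitochondrial synthetases. RNA was measured on 4 Affymetrix arrays of T29, a mouse thymic lymphoma cell line described in the series' design text as deficient in Ikaros. All samples were transduced with MigR1-MLER, a retroviral construct for an inducible dominant-negative Mastermind, the co-activator through which Notch switches on its targets. One group was given 100 nM 4OHT, the tamoxifen metabolite that activates oestrogen receptor fusions, for 24 h (2 samples), and the other was given ethanol, its solvent, for 24 h (2 samples). Both groups therefore carried the construct, and no sample without it was analysed here. Whether the samples were separate cultures is not in the labels, so the p-values reflect the spread among these 4 samples alone, possibly a technical one.

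Each synthetase recognises its amino acid and the matching tRNAs and uses ATP to couple them. In animal cells the cytosol and the mitochondria mostly use separate enzymes encoded by separate nuclear genes, with Kars and Gars known to serve both compartments. Several of the cytosolic enzymes sit in the multisynthetase complex, which is held together by the scaffold proteins encoded by Aimp1, Aimp2 and Eef1e1. Many cytosolic synthetase genes are known targets of ATF4, the transcription factor made when uncharged tRNA activates the kinase GCN2, and MYC is known to drive many growth genes of this kind in lymphoid cells.

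Values are log2 expression values made by the authors with RMA, 1 per probe set and array, and each gene was read through its brightest probe set (by the mean of the 4 arrays). Genes whose mean was under a log2 value of 4.81 were not tested, and all 35 synthetases were above it. A change is the mean with 4OHT minus the mean with ethanol on the log2 scale, and it was called where the adjusted p from limma over the 11581 genes tested was under 0.05. Arrays correlated at r = 0.995 within the 4OHT group and 0.995 within the ethanol group across genes, against 0.983 to 0.987 between groups. The 7 Notch readouts were all called lower with 4OHT, beside 3.57% of all genes tested. This list was chosen with earlier results of these data known. Their log2 changes were -3.41 for Dtx1, -2.23 for Ptcra, -2.11 for Il2ra, -1.68 for Notch3, -1.44 for Nrarp, -1.39 for Hes1 and -0.74 for Myc. The mean of 11 T-cell markers was 10.87 and 10.92 with 4OHT and 10.65 and 10.73 with ethanol. Of the 10 tested, 3 were called higher, beside 3.9% of all genes tested. They were Cd8a with a change of 0.83, Cd247 with 0.68 and Ptprc with 0.60. Cd3g was called lower (-0.57), beside 3.57% of all genes tested. These changes were larger than those of the synthetases. The mean of 5 B-cell markers was 4.35 and 4.35 with 4OHT and 4.36 and 4.49 with ethanol. It was 4.80 and 4.84 against 4.76 and 4.79 for 6 myeloid markers. For 9 stromal, epithelial and endothelial markers it was 4.93 and 4.96 against 5.01 and 4.98, and for 3 erythroid markers 4.75 and 4.60 against 4.93 and 4.94. Only 2, 2, 4 and 1 genes of these lists were bright enough to be tested, and none was called. Single markers, named after their values were seen, moved more than the means. They went up (Itgam 0.77 and Pdgfra 0.56, neither tested) and down (Epor -0.40 and Cd14 -0.37, not called). To gauge RNA quality, control probe sets at the 3′ and 5′ ends of a transcript were set against each other. The 3′ minus 5′ difference for 18S ribosomal RNA was 0.90 and 0.82 with 4OHT and 0.05 and 0.32 with ethanol. That of Actb was 0.43 and 0.45 with 4OHT and 0.40 and 0.49 with ethanol. For Gapdh it was -0.03 and -0.03 with 4OHT and -0.07 and 0.03 with ethanol. The 18S difference thus moved with the groups, while for Actb and Gapdh the groups overlapped. The part of the 18S difference in the results was not tested.

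Synthetase RNA was mostly a little lower after 4OHT. Of the 35 genes, 31 had a change below 0, where 52.3% of all genes tested did, and the median change was -0.29, against -0.01 over all genes tested. In these bulk samples, fewer cells expressing a gene and less RNA per cell cannot be told apart. Few single genes passed the test. The tryptophan enzyme Wars and the mitochondrial tyrosine enzyme Yars2 were called lower and none was called higher, so that 2 of 35 members were called lower beside 3.57% of genes tested and 0 of 35 higher beside 3.9%. At an unadjusted p under 0.05, 15 synthetases were lower, beside 13.2% of all genes tested, and 0 were higher, beside 12.3%. In 24 synthetases both 4OHT values lay below both ethanol values, where 30.2% of genes tested did so, and in 2, Qars and Fars2, both 4OHT values lay above, where 26.7% did so. Among all 11581 genes the smallest change called was 0.40, and 28 of the 35 synthetases changed by less than that. That value is not a limit of detection, since a call also depends on the spread. Nars (-0.49) and Farsb (-0.48), for example, changed by more and were not called. The number called lower was 11 when limma's variance prior was allowed to follow intensity. In that fit 636 of all 11581 genes tested were lower, against 413 without this setting. Neither the Wars nor the Yars2 call held when any 1 array was left out. Such a fit has 1 residual degree of freedom and lost most calls over all genes.

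**Figure D1:**
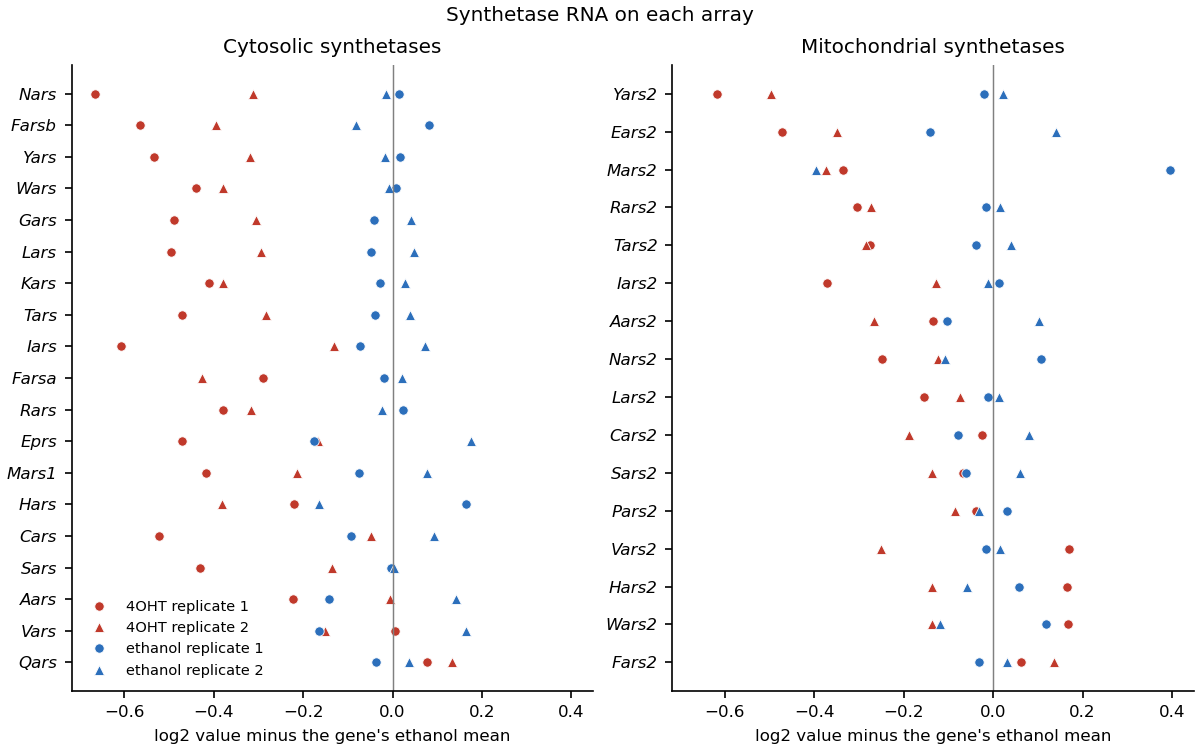
Log2 expression value of each synthetase on each array, minus that gene's mean over the 2 ethanol arrays, for the 19 cytosolic (left) and 16 mitochondrial (right) enzymes, ordered by change. Red points are 4OHT arrays and blue points ethanol arrays. In 24 genes both red points lie left of both blue points, and in Qars and Fars2 both lie right of them.

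Yars2, which charges the mitochondrial tRNA for tyrosine, had the largest change of the synthetases. Its log2 value was 8.04 and 8.16 on the 4OHT arrays, against 8.64 and 8.68 on the ethanol arrays. Both 4OHT values were below both ethanol values by more than the spread within either group. It fell 1.47-fold (log2 change -0.56 ± 0.09 SE, n = 2 each, limma adjusted p = 0.0305). A further Yars2 probe set had 7.68 and 7.70 with 4OHT and 8.26 and 8.30 with ethanol. In a fit over all 20967 probe sets above the floor both were called lower (adjusted p = 0.0479 and 0.0392), beside 1.59% of those probe sets. The cytosolic enzyme for the same amino acid, Yars, was at 9.25 and 9.46 with 4OHT, against 9.80 and 9.76 with ethanol. The groups did not overlap for Yars either, but its change of -0.43 ± 0.10 was not called (adjusted p = 0.0736).

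Wars, the cytosolic tryptophan enzyme, is also known as an interferon-inducible gene. It was at 9.03 and 9.09 with 4OHT, against 9.48 and 9.46 with ethanol. The arrays of a group differed by less than 0.1, and the groups were well apart. Wars fell 1.33-fold (log2 change -0.41 ± 0.08 SE, n = 2 each, limma adjusted p = 0.0491), which placed it just inside the threshold. The call did not hold when dim genes were kept or when its probe sets were averaged. It was also lost without probe sets of the _x_at and _s_at kinds (which can read related transcripts, and of which its own is one). Nor did the call hold without any 1 array, but such a fit lost most calls over all genes. Its 3 other probe sets gave changes of -0.34, -0.44 and -0.43. In the fit over all probe sets none of the 4 was called, the one used included (adjusted p = 0.0766). The mitochondrial enzyme Wars2 was at 6.87 and 6.57 with 4OHT and 6.82 and 6.58 with ethanol, a change of 0.02 with a 95% interval from -0.34 to 0.37.

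The 19 cytosolic synthetases had a median change of -0.36, and 18 of them were below 0, where 52.3% of all genes tested were. In 14 of the 19 both 4OHT values lay under both ethanol values, where 30.2% of all genes tested did so. Their mean over genes was 10.45 and 10.61 on the 4OHT arrays, against 10.81 and 10.88 on the ethanol arrays. Kars, the lysine enzyme, lay nearest to the threshold among those not called, at 11.21 and 11.24 with 4OHT against 11.59 and 11.64 with ethanol (change -0.39 ± 0.08, limma adjusted p = 0.0535). Farsb, the beta subunit of the phenylalanine enzyme, came next, at 9.99 and 10.16 with 4OHT against 10.63 and 10.47 with ethanol (-0.48 ± 0.11, adjusted p = 0.0603). Its 3 other probe sets gave -0.55, -0.54 and -0.53. Farsa, which encodes the alpha subunit of the same enzyme, was at 9.86 and 9.73 with 4OHT, against 10.13 and 10.17 with ethanol. Nars, the asparagine enzyme, had the largest cytosolic change, -0.49 ± 0.13, with values of 11.45 and 11.81 with 4OHT against 12.13 and 12.10 with ethanol (adjusted p = 0.0943). The wider gap between its 4OHT arrays went with a larger adjusted p than that of Kars.

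Inside the multisynthetase complex, 6 of the 7 measured enzymes had changes between -0.39 and -0.32, and Qars stood on the other side of 0. Besides Kars, these were Lars for leucine (-0.39 ± 0.11), Iars for isoleucine (-0.37 ± 0.17), Rars for arginine (-0.35 ± 0.09), the double enzyme Eprs for glutamate and proline (-0.32 ± 0.16) and Mars1 for methionine (-0.32 ± 0.11). None was called, with limma adjusted p-values from 0.0535 for Kars to 0.286 for Eprs, beside 3.57% of all genes tested called lower. With an intensity trend in limma's variance prior Kars (adjusted p = 0.0124), Rars (0.0228) and Lars (0.0397) were called. In that fit 636 of all 11581 genes tested were lower, against 413 without the trend. The median was -0.35 for the 7 measured enzymes of the complex and -0.37 for the 12 cytosolic enzymes outside it. Dars, also listed with the complex, was not among the genes measured. Qars, the glutamine enzyme, was at 10.78 and 10.83 with 4OHT, against 10.66 and 10.74 with ethanol. Its probe sets above the floor had changes of 0.10 ± 0.09, 0.07 and 0.02, the last with overlapping groups. For the brightest, the 95% interval ran from -0.11 to 0.32 (limma adjusted p = 0.499).

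Outside the complex, the enzymes for glycine (Gars), threonine (Tars), histidine (Hars), cysteine (Cars) and serine (Sars) had changes from -0.40 to -0.28. Gars was at 11.13 and 11.32 with 4OHT, against 11.58 and 11.66 with ethanol, and Tars at 10.84 and 11.03 against 11.27 and 11.35. Both had groups that did not overlap and neither was called (adjusted p = 0.0818 and 0.091). Aars, the alanine enzyme, was at 10.86 and 11.08 with 4OHT and 10.94 and 11.22 with ethanol, and the groups overlapped. Vars, the valine enzyme, was at 10.99 and 10.84 with 4OHT and 10.82 and 11.15 with ethanol, again overlapping. The 95% intervals ran from -0.45 to 0.22 for Aars and from -0.42 to 0.27 for Vars. A change as large as the cytosolic median of -0.36 was within both, but those of Nars and Farsb were not.

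**Figure D2:**
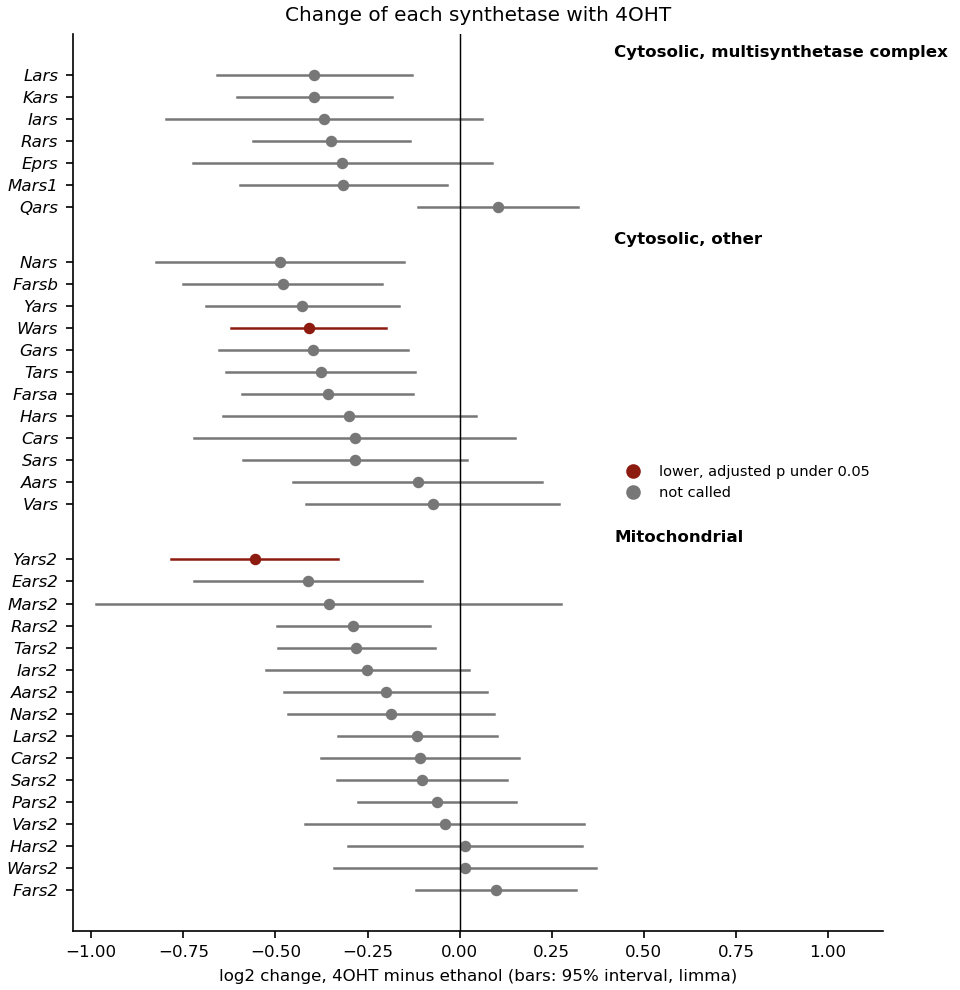
Log2 change of each synthetase, 4OHT minus ethanol, with limma's 95% interval. Shown are the 7 measured enzymes of the multisynthetase complex, the 12 other cytosolic enzymes and the 16 mitochondrial enzymes. Wars and Yars2 (dark red) were called lower, and most other points lie left of 0 with intervals that reach near or across it.

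Arrays of 1 group differed from each other in the cytosolic enzymes. For 16 of the 19 genes the value on 4OHT replicate 1 was below that on 4OHT replicate 2, where 53.4% of all genes tested were, and the median gap was -0.19, against -0.01 over all genes tested. Ethanol replicate 1 was below ethanol replicate 2 for 13 of the 19, where 54.6% of all genes tested were, with a median gap of -0.07, against -0.02. Iars had the widest gap between the 4OHT arrays, at 9.89 on 4OHT replicate 1 and 10.36 on 4OHT replicate 2. For 7 of the 16 mitochondrial enzymes 4OHT replicate 1 was the lower array. Without 4OHT replicate 1 the cytosolic median was -0.30, and without 4OHT replicate 2 it was -0.44. Atf4 also differed between the 4OHT arrays, at 11.73 on 4OHT replicate 1 and 12.14 on 4OHT replicate 2, against 12.15 and 12.41 with ethanol. So did Asns, the asparagine synthetase gene and a standard ATF4 target named after its value was seen, at 10.47 and 11.18 with 4OHT against 11.39 and 11.52 with ethanol. The part of this difference between arrays in the changes was not tested.

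Promoter sequences show which motifs lie near the starts of these genes. RefSeq windows of 300 bases (assembly GRCm38.p6, 250 before and 50 after the annotated start) were at hand for 26 of the 35 genes, in 27 windows; Cars, Hars, Hars2, Lars, Nars, Pars2, Rars, Vars and Wars were not matched. Both strands were searched for 3 motifs, whose matches did not overlap one another. The E-box CACGTG, the site of MYC with MAX, was in 4 of 12 cytosolic and 1 of 15 mitochondrial windows, and in 7.15% of all 32851 windows. The C/EBP-ATF response element TGATGNAAN, a site of ATF4 with its partners, was in 5 of 12 cytosolic and 0 of 15 mitochondrial windows, and in 3.95% of all windows. The core GTGGGAA of the RBPJ site, where Notch and Mastermind act, was in 0 of the 27 windows and in 6.38% of all windows. Windows are shown for the called gene Yars2, which held none of the 3 motifs, for Farsb, which held an E-box alone, and for Iars, Tars and Aars, which held both an E-box and a C/EBP-ATF element. Each reads 5′ to 3′ along the gene, with motif matches in capitals.
Yars2, chr16:16302715-16303014, plus strand: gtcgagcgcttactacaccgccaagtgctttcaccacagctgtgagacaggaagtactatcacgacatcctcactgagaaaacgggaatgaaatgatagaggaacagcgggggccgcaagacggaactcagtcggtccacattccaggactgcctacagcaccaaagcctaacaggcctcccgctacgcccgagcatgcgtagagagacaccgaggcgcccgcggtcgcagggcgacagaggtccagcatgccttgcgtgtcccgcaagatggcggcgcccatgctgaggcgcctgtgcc
Farsb, chr1:78488848-78489147, minus strand: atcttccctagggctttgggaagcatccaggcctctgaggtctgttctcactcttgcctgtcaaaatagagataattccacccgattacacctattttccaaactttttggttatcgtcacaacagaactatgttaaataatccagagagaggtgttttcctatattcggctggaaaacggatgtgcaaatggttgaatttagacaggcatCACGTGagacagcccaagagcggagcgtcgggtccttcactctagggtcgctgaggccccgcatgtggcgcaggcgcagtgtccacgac
Iars, chr13:49681880-49682179, plus strand: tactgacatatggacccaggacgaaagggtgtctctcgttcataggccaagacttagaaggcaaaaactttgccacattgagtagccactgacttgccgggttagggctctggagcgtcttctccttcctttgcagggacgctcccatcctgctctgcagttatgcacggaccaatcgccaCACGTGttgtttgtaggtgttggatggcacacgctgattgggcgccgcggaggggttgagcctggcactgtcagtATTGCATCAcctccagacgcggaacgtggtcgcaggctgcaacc
Tars, chr15:11399609-11399908, minus strand: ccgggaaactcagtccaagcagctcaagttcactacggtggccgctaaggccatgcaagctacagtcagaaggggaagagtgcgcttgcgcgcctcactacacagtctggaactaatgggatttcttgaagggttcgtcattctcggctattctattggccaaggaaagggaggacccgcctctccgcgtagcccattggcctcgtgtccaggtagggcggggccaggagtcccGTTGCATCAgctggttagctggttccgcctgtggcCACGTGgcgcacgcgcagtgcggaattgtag
Aars, chr8:111033592-111033891, plus strand: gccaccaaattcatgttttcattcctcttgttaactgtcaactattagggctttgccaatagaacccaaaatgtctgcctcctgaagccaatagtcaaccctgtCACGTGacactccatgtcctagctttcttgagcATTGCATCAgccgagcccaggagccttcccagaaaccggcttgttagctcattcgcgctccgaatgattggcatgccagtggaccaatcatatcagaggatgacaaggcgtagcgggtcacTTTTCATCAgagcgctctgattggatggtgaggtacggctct
The E-box begins 39 bases before the start in Farsb, 69 before it in Iars and 146 before it in Aars, and at base 20 of the transcribed part in Tars. The C/EBP-ATF element lies on the opposite strand in all 3 genes that hold it here, from 16 bases before the start in Tars, from base 7 of the transcribed part in Iars, and from 113 bases before the start and again from base 9 after it in Aars. Gars and Yars hold the same element without an E-box. The changes of the genes with both motifs were -0.37 in Iars, -0.38 in Tars and -0.11 in Aars. That of Yars2, with none, was -0.56. Whether motifs and changes went together was not tested. A match is a description of the letters only, and these arrays did not measure binding.

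Changes of the 16 mitochondrial synthetases were smaller, with a median of -0.15. Of the 16, 13 were below 0, where 52.3% of all genes tested were. In 10 of the 16 both 4OHT values lay under both ethanol values, where 30.2% of all genes tested did so. Their mean over genes was 8.02 and 7.97 with 4OHT, against 8.18 and 8.16 with ethanol. After Yars2, the lowest adjusted p-values were those of Rars2 for arginine, at 9.30 and 9.33 with 4OHT against 9.59 and 9.62 with ethanol (change -0.29 ± 0.08, limma adjusted p = 0.102), and of Ears2 for glutamate, at 6.83 and 6.95 against 7.16 and 7.44 (-0.41 ± 0.12, adjusted p = 0.112). Tars2 for threonine followed (-0.28 ± 0.09, adjusted p = 0.115). Neither Rars2, Ears2 nor Tars2 was called, though the groups of each did not overlap. Iars2, Aars2, Nars2, Lars2, Cars2, Sars2, Pars2 and Vars2 had changes from -0.25 to -0.04, and Fars2, Wars2 and Hars2 from 0.01 to 0.10. Mars2, the methionine enzyme, was dim and rested on 1 array: it was at 5.38 and 5.34 with 4OHT and 6.11 and 5.32 with ethanol, and without ethanol replicate 1 its change was 0.04.

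For 14 amino acids both a cytosolic and a mitochondrial enzyme were measured, in 15 pairs because the cytosolic phenylalanine enzyme has 2 subunits. The cytosolic change was the lower one in 12 of the 15 pairs, and the median difference between the changes, cytosolic minus mitochondrial, was -0.18. The gap was widest for phenylalanine, with Farsb at -0.48 and Farsa at -0.36 against 0.10 for Fars2, followed by tryptophan, with -0.41 for Wars against 0.02 for Wars2. Histidine also stood apart, with -0.30 for Hars against 0.01 for Hars2. Tyrosine ran the other way, with -0.43 for Yars against -0.56 for Yars2, as did alanine and methionine. The difference between compartments was not tested. Mean values with 4OHT were also lower for the mitochondrial enzymes (8.02 and 7.97) than for the cytosolic ones (10.45 and 10.61). The part of brightness in the difference was not tested.

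**Figure D3:**
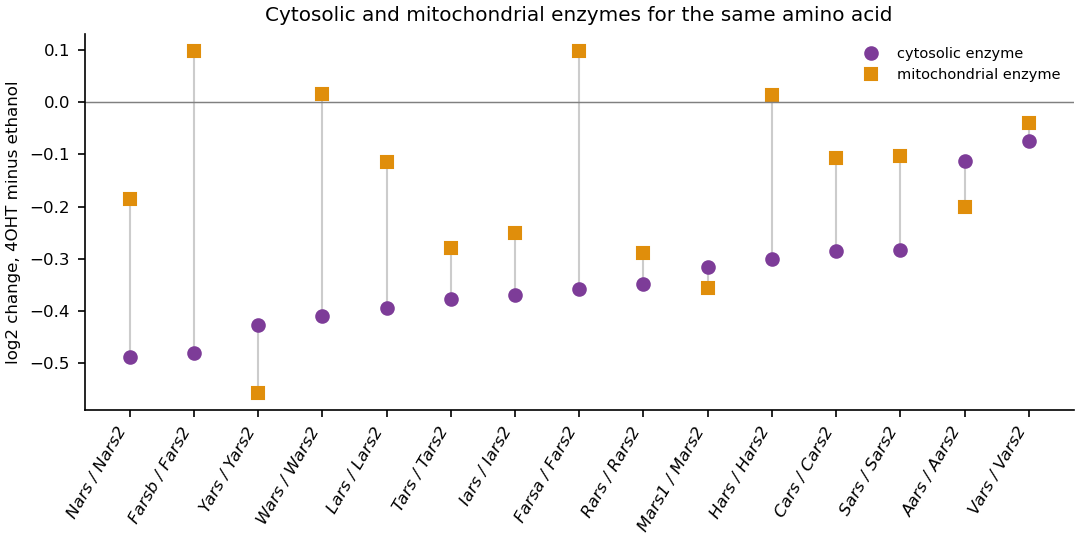
Log2 change, 4OHT minus ethanol, of the cytosolic (circles) and mitochondrial (squares) enzyme for the same amino acid, in 15 pairs over 14 amino acids. The circle lies below the square in 12 pairs, and Yars with Yars2, Aars with Aars2 and Mars1 with Mars2 are the exceptions.

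Several synthetases were read by more than 1 probe set, which gives further readings of the same RNA samples. The 35 genes had 72 probe sets, and 29 probe sets beyond the ones used were above the floor. Of these 29, 25 had a change of the same sign as the probe set used. The 4 exceptions were in Ears2, Lars2, Hars2 and Wars2, and the one in Ears2 was at 5.15 and 5.01 with 4OHT and 5.09 and 4.97 with ethanol, close to the floor. The 2 further Farsa probe sets, at 6.80 and 6.74 with 4OHT against 6.79 and 6.91 with ethanol for the brighter one, gave changes of -0.08 and -0.06, where the probe set used gave -0.36. Nars, Farsb, Wars and Eprs gave like changes through all their probe sets above the floor.

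**Figure D4:**
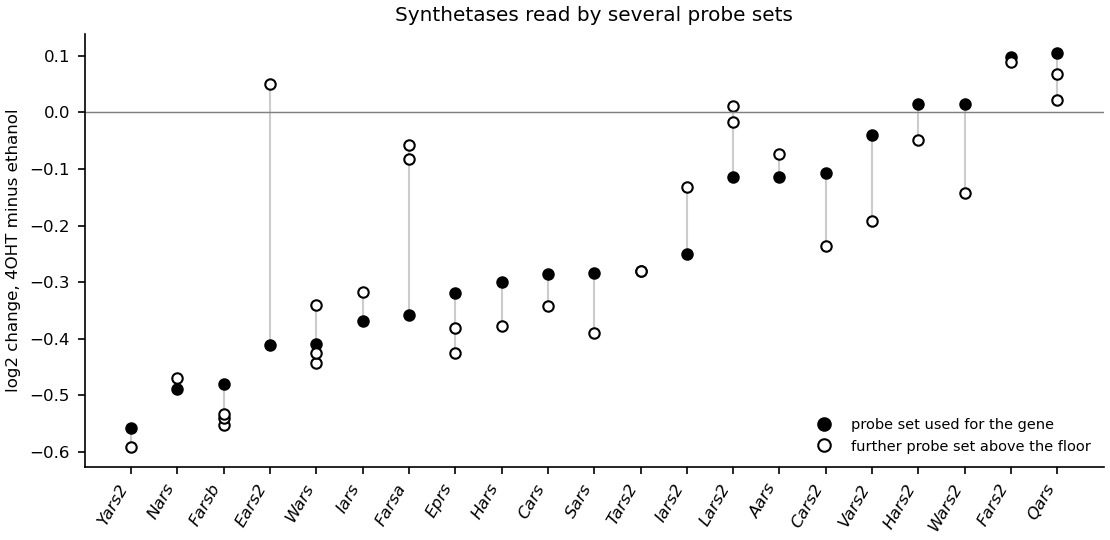
Log2 change, 4OHT minus ethanol, through every probe set above the floor, for the synthetases with at least 2 such probe sets. Filled points are the probe sets used and open points the further ones. Open points lie on the same side of 0 as the filled point in 25 of 29 cases.

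Aimp2 and Eef1e1, 2 of the 3 scaffold genes of the multisynthetase complex, were called lower. Neither call held when any 1 array was left out, but such a fit lost most calls over all genes. Aimp2 was at 10.09 and 10.01 with 4OHT, against 10.69 and 10.59 with ethanol, and fell by 0.59 ± 0.09 on the log2 scale (limma adjusted p = 0.0275). Eef1e1 was at 10.61 and 10.54 with 4OHT, against 11.16 and 11.07 with ethanol, and fell by 0.54 ± 0.09 (adjusted p = 0.0305). Aimp1 was at 10.92 with 4OHT and 11.07 with ethanol and was not called (limma adjusted p = 0.339). Of all genes tested, 3.57% were called lower. The difference between scaffold and enzymes was not tested. With an intensity trend 3 of the enzymes were themselves called, where 636 of all 11581 genes tested were lower.

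Further lists held other genes that make or handle tRNA, with few called members each. Their counts stand beside the 3.57% of all genes tested that were called lower and the 3.9% called higher. No call named from them (Dtd1, Aarsd1, Rpp40, Pop1, Tsfm, Slc7a1 and Slc7a11) held when any 1 array was left out. Such a fit has 1 residual degree of freedom and lost most calls over all genes. Of 14 charging accessories and related enzymes tested, 2 were lower, 0 higher, and the median was -0.17. Dtd1, which removes D-amino acids from tRNA, fell 1.78-fold, to 8.06 and 8.33 with 4OHT against 8.99 and 9.05 with ethanol (adjusted p = 0.0232). Aarsd1, an editing protein related to the alanine enzyme, fell by 0.51 on the log2 scale (adjusted p = 0.043). Tarsl2, listed here because its symbol lies outside the rule for synthetases, was named after its value was seen. It changed by -0.42 and was not called (limma adjusted p = 0.0503). Mitochondria make their glutamine-tRNA from glutamate-tRNA charged by the Ears2 product, through an amidotransferase whose subunit genes, named after their values were seen, had changes of -0.43 for Gatb (adjusted p = 0.0541), -0.15 for Gatc and -0.14 for Qrsl1. Among 16 tRNA maturation and export genes tested, 2 were lower and 0 higher, with a median of -0.26: Rpp40 and Pop1, both of the RNase P and RNase MRP particles, fell by 0.80 (adjusted p = 0.0183) and 0.55 (adjusted p = 0.0268).

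Elongation factors carry charged tRNA to the ribosome and move the ribosome along. Of 8 such genes tested, 1 was lower and 0 higher, beside 3.57% and 3.9% of all genes tested, with a median of -0.18. The called gene was Tsfm, the mitochondrial exchange factor, at 8.79 and 8.89 with 4OHT against 9.34 and 9.25 with ethanol (-0.46 ± 0.09, adjusted p = 0.0448). Eef1d, of the cytosolic exchange factor, changed by -0.28 (adjusted p = 0.113) and Tufm, the mitochondrial factor that carries charged tRNA, by -0.26 (adjusted p = 0.132). Its cytosolic counterpart Eef1a1, named after its value was seen, was at 14.37 with 4OHT and 14.33 with ethanol. None of 7 genes for sensing uncharged tRNA was called, and their median was -0.12. The nearest were Eif2s2, an eIF2 subunit gene (-0.22, adjusted p = 0.21), and Eif2ak4, which encodes GCN2 (-0.12, adjusted p = 0.489).

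The ATF4 and amino acid response list had changes in both directions. Of 21 genes tested, 1 was lower and 1 higher, beside 3.57% and 3.9% of all genes tested. A change below 0 was seen in 17, beside 52.3% of all genes tested, and the median was -0.47. Slc7a1, a transporter of cationic amino acids, was at 10.42 and 10.74 with 4OHT, against 11.31 and 11.22 with ethanol (-0.68 ± 0.13, limma adjusted p = 0.0397). Slc7a11, the cystine transporter gene, rose by 1.02 on the log2 scale (adjusted p = 0.0151). Atf4 changed by -0.34 ± 0.17 and was not called (adjusted p = 0.269), nor was Asns (-0.63 ± 0.23, adjusted p = 0.171). Cth, a cysteine synthesis gene named after its value was seen, was at 6.03 and 7.28 with 4OHT, against 7.79 and 8.13 with ethanol, and was not called (-1.31 ± 0.40, adjusted p = 0.115).

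**Figure D5:**
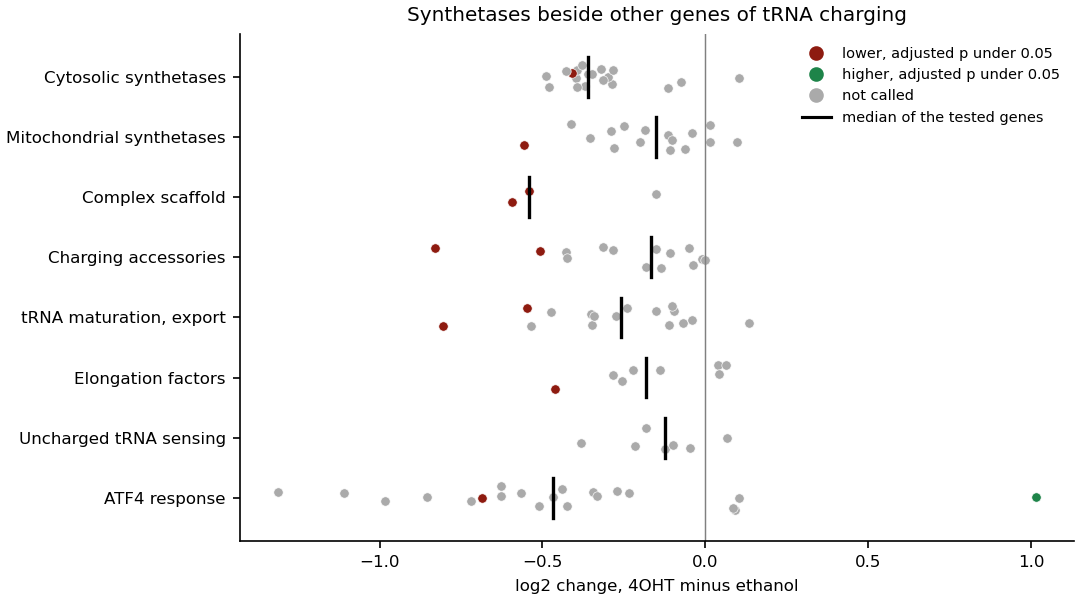
Log2 change, 4OHT minus ethanol, of every tested gene of the synthetase groups and of 6 related lists, with the median of each as a black bar. Red points were called lower and the green point, Slc7a11, higher. All 8 medians lie below 0, from -0.12 for uncharged tRNA sensing to -0.54 for the complex scaffold.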

How the data were processed

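RNA from 4 samples of T29 cells was measured on Affymetrix arrays. The authors deposited log2 values from RMA (named in the submitters' processing notes), with no version given in the sources used. RMA gives all arrays the same distribution of signals, so a change in total RNA per cell would not be seen. The number of arrays limits the precision. Of 45101 probe sets, 34945 named 1 gene, 932 named several, and 64 were controls. Each gene was read through the probe set with the highest mean, and genes under the 40th percentile of named probe sets were not tested. A limma model (version 3.58.1, R 4.3.3; lmFit, then eBayes) compared the groups over all 4 arrays without a block, and p-values were adjusted by Benjamini-Hochberg over 11581 genes. Adjusted p-values come from this fit. The fit was also run on simulated data of 11581 genes with 200 changed. There it recovered 3.9% of changes of 0.5, 57% of changes of 1 and 87.7% of changes of 2 on the log2 scale. Fewer genes were changed there than were called here (413 lower and 452 higher), and spreads were drawn without regard to brightness. These shares are therefore not the recovery for the synthetases. The members and gene lists were chosen with earlier results of these data known. The text names every synthetase found by symbol, and of each other list the called genes or those nearest the threshold. Some further genes are marked as named after their values were seen. Lists of B-cell, myeloid, stromal and erythroid markers are given mainly as means. Alternatives were other normalizations, filters, probe set choices, variance priors and thresholds, the replicate number as a block, and each array left out.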

Additional observations from a re-analysis of the deposited data

How the results depend on the processing

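The direction of the synthetase shift was kept under the alternatives tried, and the number of calls was not. The cytosolic median lay between -0.44 and -0.30 and the mitochondrial median between -0.16 and -0.10 when 1 array was left out. The 2 synthetases called lower became 1 with no filter, 5 with a filter at the 60th percentile, 11 with an intensity trend, 11 with a trend and a robust prior, 11 at an adjusted p under 0.1 and 0 under 0.01. Of these, the cytosolic 1 became 0, 4, 10, 10, 10 and 0, and 2 when probe sets of a gene were averaged. The mitochondrial 1 became 0 under 0.01. Over the whole table, the 413 lower genes became 636 with a trend, 666 with a robust prior, 824 under 0.1 and 22 under 0.01. The 452 higher genes became 663 with a trend, 679 with a robust prior, 853 under 0.1 and 24 under 0.01. Leaving out any 1 array left 0 synthetases called, whether cytosolic or mitochondrial, and between 12 and 66 lower and 9 and 125 higher genes in the whole table; such a fit has 1 residual degree of freedom, and the group with 1 array is assumed to vary like the other. With the replicate block, 14 synthetases were lower (12 cytosolic and 2 mitochondrial), with 1031 lower and 1104 higher genes in all. The samples share only a number, and same-numbered arrays had deviations from their group means that correlated at 0.34. The causes of these differences were not tested.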
